A study of Mus musculus with 12 samples.

Results

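R-spondins are secreted proteins that make cells more sensitive to WNT ligands. The genes described here are the R-spondins *Rspo1*, *Rspo2* and *Rspo3*, the leucine-rich repeat receptors *Lgr4*, *Lgr5* and *Lgr6* that bind them, and *Znrf3* and *Rnf43*, which encode the transmembrane ubiquitin ligases of the same complex. They were taken by name, through the Ensembl identifier of each row, and are 8 of the 56980 genes of the count matrix. The study asked how parathyroid hormone (PTH) acts on the transcriptional coactivator YAP in W-20 cells, a murine bone marrow stromal cell (BMSC) line, and what the Y428F substitution in YAP does to this response. Bulk RNA-Seq was performed in 12 libraries that form 4 groups of 3, which were WT cells with vehicle (PBS), WT cells with 50 nM PTH, Y428F cells with vehicle and Y428F cells with 50 nM PTH, each exposed for 2 hours. Library totals ranged from 17127897 to 19057319 expected counts. Expression is given in CPM, counts made comparable between libraries by their totals and edgeR's TMM factors, and a gene was called when its adjusted p was under 0.05 over the 17691 genes tested together (edgeR's quasi-likelihood test, p-values adjusted by Benjamini and Hochberg's method).

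The WT cells are taken here as unmodified, because their titles name W20 only. In other experiments the study also uses WT for W-20 cells given unmutated YAP. The Y428F cells came from transfection with a plasmid for Flag-tagged YAP and puromycin selection of clones. The titles of their libraries name Y428F only. In the study's text, the YAP of the cells compared by RNA-Seq carries a serine-to-alanine substitution as well. It lies at a site where phosphorylation by LATS1 favors degradation. The methods also describe a W-20 line with Y428F alone, and the titles do not tell the lines apart. The genotype field of the Y428F libraries reads WT, so these groups were taken from the titles. If the WT cells were unmodified, no library of cells given unmutated Flag-tagged YAP was analysed here. By title, none was of cells given YAP with the serine-to-alanine substitution alone. Either substitution, the added YAP and other differences between the lines therefore cannot be told apart. Every library is an average over cultured cells, and a smaller number of expressing cells and less RNA per cell cannot be told apart. The labels do not say that replicates were separate cultures, so the p-values measure only the spread between these samples, which may be technical.

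An R-spondin bridges an LGR receptor and ZNRF3 or RNF43. Without it, these ligases ubiquitinate Frizzled and LRP6, the receptors of WNT ligands, and remove them from the cell surface. With it, the ligase is cleared from the membrane instead, Frizzled and LRP6 accumulate, and β-catenin signaling at a given amount of WNT increases. *Znrf3* and *Rnf43* are themselves β-catenin target genes in many tissues, which makes them part of a negative feedback. In bone, R-spondin 2 is known to promote osteoblast differentiation, and LGR4 also binds RANKL, the cytokine that drives osteoclast formation.

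Of the ligands, *Rspo2* was the one detected in every library. *Rspo3* (ENSMUSG00000019880.11, GRCm39 chr10:29327285-29411876) had 0 counts in all 12 libraries, which at 3 counts allows up to 0.152 to 0.185 CPM per library, a limit that covers counting error only. *Rspo1* (ENSMUSG00000028871.8, chr4:124879876-124902892) had 2 counts, both in 1 WT library with PTH. Neither of these genes was tested, and a change in them was not detectable at this depth. Of the receptors, *Lgr4* and *Lgr6* were detected in every library, whereas *Lgr5*, a stem cell marker in the intestine, had 10 counts in total (ENSMUSG00000020140.16, chr10:115286216-115423685). These were 2 counts in WT replicate 3 with PTH, 1 in Y428F replicate 1 with vehicle and 7 in Y428F replicate 2 with PTH. *Lgr5* thus only just reached the minimum total of 10 counts, with 7 of them in 1 library, and no fold change is given for it. Both ligase genes were detected throughout, so that 6 of the 8 genes were tested and 5 had more than a few counts per library.

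*Rspo2* (ENSMUSG00000051920.8, chr15:42877439-43034706, minus strand) was higher with PTH in both lines and lower in Y428F cells than in WT cells under both treatments. In WT cells with vehicle its libraries had 43.4, 44.3 and 42.2 CPM, and with PTH 71.2, 74.9 and 74.2 CPM. In Y428F cells they had 16.6, 13.6 and 16.8 CPM with vehicle and 19.6, 19.9 and 19.8 CPM with PTH. The 4 groups occupied 4 separate ranges, and the highest Y428F library lay below the lowest WT library. The means were 43.3 ± 1.07, 73.4 ± 1.96, 15.7 ± 1.78 and 19.8 ± 0.120 CPM in that order (SD, n = 3).

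**Figure D1:**
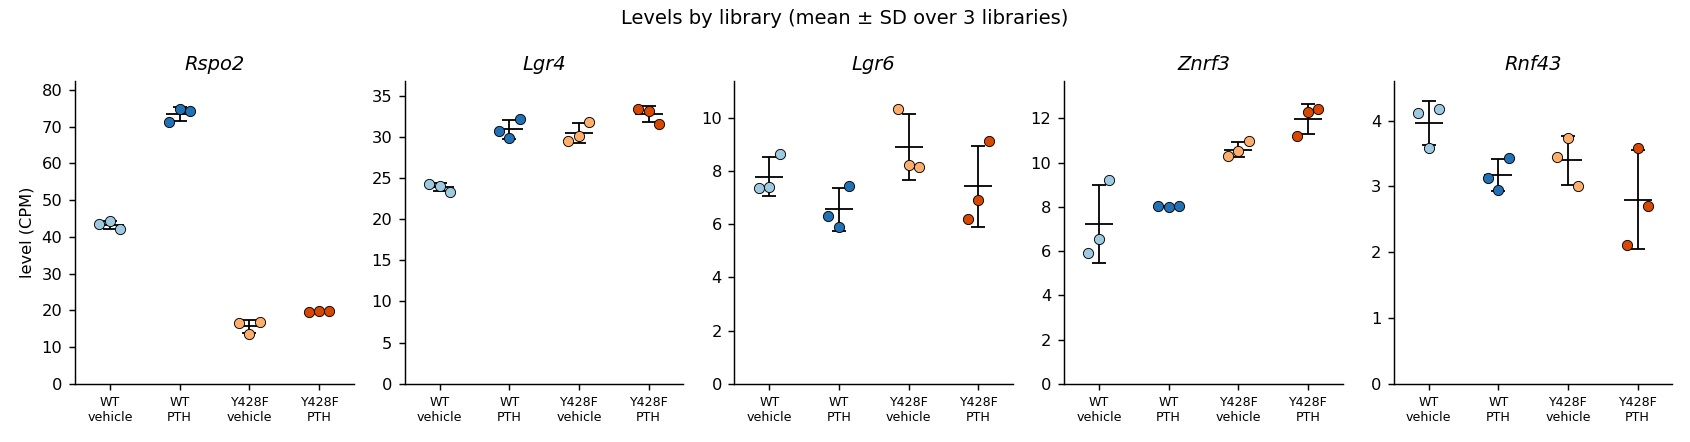
Levels (CPM, linear axes from 0, a separate scale for each gene) of the 5 genes with more than a few counts per library, in the 12 libraries. Points are libraries and bars are the mean ± SD of 3 libraries. For *Rspo2* the 4 groups do not overlap, whereas for *Lgr4* the group of WT cells with vehicle (23.3 to 24.2 CPM) lies below the other 3 groups. In the 4 comparisons between groups, 26.4% to 53.8% of all genes tested did not overlap.

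PTH raised *Rspo2* 1.70-fold in WT cells, with a log2 fold change of 0.76 (SE 0.072, adjusted p = 9.53e-09), and 1.26-fold in Y428F cells, with a log2 fold change of 0.34 (SE 0.084, adjusted p = 0.00681). By size, this put *Rspo2* at rank 150 of the 1322 genes that PTH raised in WT cells, and at rank 526 of the 1195 that it raised in Y428F cells. In CPM the mean increase was 30.2 in WT cells and 4.11 in Y428F cells. The call in Y428F cells rested on Y428F replicate 2 with vehicle, the lowest library for this gene, because without it the log2 fold change was 0.24 (adjusted p = 0.0803). Between the lines, *Rspo2* was 2.77-fold lower in Y428F cells with vehicle (log2 difference -1.47, SE 0.080, adjusted p = 1.11e-14) and 3.72-fold lower with PTH (log2 difference -1.89, SE 0.077, adjusted p = 2.58e-17). The level in Y428F cells with PTH was thus below that of WT cells with vehicle in all 3 libraries. *Rspo2* is one of the genes the study itself named from these samples, so these values are not independent evidence of its direction.

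The difference between the 2 responses of *Rspo2* was -0.42 on the log2 scale, Y428F minus WT, with a 95% interval of -0.65 to -0.20 before adjustment. It was not called over all genes (unadjusted p = 0.000684, adjusted p = 0.105, edgeR's quasi-likelihood test). DESeq2's Wald test gave an adjusted p of 0.0499 for it, and without Y428F replicate 2 with vehicle the difference was -0.53 (adjusted p = 0.0309). Across all alternatives it ranged from -0.53 to -0.38, with adjusted p between 0.0309 and 0.366. The response was smaller in Y428F cells under every alternative run, but the test of the difference passed the threshold in only these 2.

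*Lgr4* (ENSMUSG00000050199.14, chr2:109747839-109844609, plus strand) was raised by PTH in WT cells, and its level in Y428F cells with vehicle was already similar to that. WT libraries had 24.2, 24.1 and 23.3 CPM with vehicle and 30.8, 29.8 and 32.1 CPM with PTH. Y428F libraries had 29.5, 30.1 and 31.8 CPM with vehicle and 33.4, 33.2 and 31.6 CPM with PTH. The WT libraries with vehicle were the lowest 3 of the 12, and the other 3 groups overlapped. In WT cells the means of 23.9 ± 0.468 and 30.9 ± 1.16 CPM (n = 3) gave a log2 fold change of 0.37 (SE 0.076, adjusted p = 0.000973), an increase at rank 546 of the 1322 called. In Y428F cells the means of 30.5 ± 1.21 and 32.7 ± 0.986 CPM gave 0.10 (95% interval -0.05 to 0.26, adjusted p = 0.436), which was not called. Y428F cells were higher than WT cells with vehicle (log2 difference 0.35, SE 0.075, adjusted p = 0.000319) but not with PTH (0.08, 95% interval -0.07 to 0.24, adjusted p = 0.393). The difference between the responses was -0.27 (95% interval -0.49 to -0.05 before adjustment, unadjusted p = 0.0171) and was not called over all genes (adjusted p = 0.562). Thus, a gene called in WT cells and not in Y428F cells was not shown to respond differently in them.

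The promoter of *Lgr4* is shown beside that of *Lgr6*, whose transcript was not called in any comparison, so that the receptor that responded to PTH and its relative can be compared. RefSeq promoters (GRCm38.p6) were matched for 4 of the 8 genes: *Rspo1*, *Lgr4*, *Lgr6* and *Rnf43*. Both sequences are the 250 bases before the gene's start, read 5′ to 3′ on the strand of the gene, at chr2:109917397-109917646 (plus strand) for *Lgr4* and at chr1:135105277-135105526 (minus strand) for *Lgr6*. Capitals mark matches to GGAATG, the core of the motif of TEAD, the DNA-binding partners of YAP, which reads CATTCC where it lies on the opposite strand.
Lgr4: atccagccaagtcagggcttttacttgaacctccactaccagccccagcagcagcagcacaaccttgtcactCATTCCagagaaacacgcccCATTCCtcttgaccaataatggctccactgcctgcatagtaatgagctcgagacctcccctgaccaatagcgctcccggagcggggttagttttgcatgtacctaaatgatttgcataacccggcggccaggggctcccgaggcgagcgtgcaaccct
Lgr6: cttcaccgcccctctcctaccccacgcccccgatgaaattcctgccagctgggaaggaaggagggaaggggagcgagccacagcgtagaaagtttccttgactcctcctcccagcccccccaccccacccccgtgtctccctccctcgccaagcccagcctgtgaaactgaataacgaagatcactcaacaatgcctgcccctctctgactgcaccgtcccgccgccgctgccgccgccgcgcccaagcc

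In *Lgr4* the core lay on the minus strand at 178 and 158 bases before the start, and *Lgr6* held no match. Searched on both strands, GGAATG was present in 12.6% of the 32851 promoter windows of this length. The cAMP response element TGACGTCA (1.55% of windows), its first part TGACG (17.8% of windows, which include every window with the whole element) and the TCF/LEF motifs CTTTGAT (3.21%) and CTTTGAA (4.46%) had no match in any of the windows of these 4 genes. A match is a stretch of letters and not a measured site, and no binding was measured in these samples.

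*Lgr6* (ENSMUSG00000042793.14, chr1:134911039-135033100, minus strand), a receptor gene also used as a marker of osteoprogenitors, was not called in any comparison. Its libraries had 7.35, 7.39 and 8.64 CPM in WT cells with vehicle and 6.31, 5.91 and 7.45 CPM in WT cells with PTH. In Y428F cells they had 10.4, 8.24 and 8.14 CPM with vehicle and 6.21, 6.90 and 9.14 CPM with PTH. The groups overlapped in each of the 4 comparisons between them. The log2 fold changes with PTH were -0.25 in WT cells (95% interval -0.56 to 0.07, adjusted p = 0.339) and -0.26 in Y428F cells (-0.56 to 0.04, adjusted p = 0.293). These intervals hold both no change and a decrease of the size by which *Lgr4* increased. When single libraries were left out, the value ranged from -0.35 to -0.17 in WT cells (adjusted p 0.200 to 0.649). In Y428F cells it ranged from -0.44 to -0.14 (adjusted p 0.0837 to 0.722).

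The ligase gene *Znrf3* (ENSMUSG00000041961.15, chr11:5226324-5394939, minus strand) was higher in Y428F cells and was not called with PTH. WT libraries had 5.92, 6.54 and 9.23 CPM with vehicle and 8.02, 8.00 and 8.04 CPM with PTH. Y428F libraries had 10.3, 10.5 and 11.0 CPM with vehicle and 11.2, 12.3 and 12.4 CPM with PTH. Every Y428F library lay above every WT library, of which replicate 3 with vehicle was the highest. The log2 difference between the lines was 0.55 with vehicle (SE 0.13, adjusted p = 0.00113) and 0.58 with PTH (SE 0.13, adjusted p = 0.000602), and across the alternatives the former ranged from 0.42 to 0.77 and remained called. With PTH the log2 fold changes were 0.15 in WT cells (95% interval -0.14 to 0.43, adjusted p = 0.579) and 0.18 in Y428F cells (-0.08 to 0.44, adjusted p = 0.436). The value in WT cells depended on single libraries with vehicle, and was 0.03, 0.09 and 0.37 without replicates 1, 2 and 3, none of them called (adjusted p 0.0888 to 0.933). In Y428F cells the libraries with PTH were all above those with vehicle, as they were for *Rspo2*, and groups did not overlap for 30.8% of all genes tested in that comparison.

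*Rnf43* (ENSMUSG00000034177.16, chr11:87553548-87626377, plus strand) had the fewest counts of the 5 genes. It had 4.13, 3.58 and 4.19 CPM in WT cells with vehicle and 3.12, 2.95 and 3.44 CPM with PTH, ranges that did not overlap, which was true of 26.4% of all genes tested. In Y428F cells it had 3.45, 3.74 and 3.00 CPM with vehicle and 2.11, 3.59 and 2.70 CPM with PTH, and these overlapped. The log2 fold change of -0.32 in WT cells was not called (95% interval -0.73 to 0.09, adjusted p = 0.348), nor was that of -0.28 in Y428F cells (-0.70 to 0.14, adjusted p = 0.450). When single libraries were left out, the value in Y428F cells ranged from -0.50 to -0.11 and was never called (adjusted p 0.175 to 0.858). Between the lines the log2 differences were -0.22 with vehicle (95% interval -0.63 to 0.18, adjusted p = 0.390) and -0.18 with PTH (-0.61 to 0.25, adjusted p = 0.517), and the latter was -0.02 without Y428F replicate 1 with PTH, -0.41 without replicate 2 and -0.12 without WT replicate 3 with PTH. With 38 to 78 counts per library, *Rnf43* had the widest intervals of the 5 genes.

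Among the 6 genes tested, 2 were called with PTH in WT cells, *Rspo2* and *Lgr4*, both upregulated, where 13.5% of all genes tested were called, 7.47% as higher and 6.01% as lower. In Y428F cells 1 was called with PTH, *Rspo2*, as upregulated, where 12.7% of all genes tested were called, 6.75% as higher and 5.94% as lower. Between the lines with vehicle 3 were called, *Lgr4* and *Znrf3* higher and *Rspo2* lower in Y428F cells, against 45.2% of all genes tested, 22.5% higher and 22.7% lower. The groups did not overlap for these 3 genes, nor for 53.8% of all genes tested. With PTH 2 were called, *Znrf3* higher and *Rspo2* lower, against 45.8% of all genes tested, 22.8% higher and 23% lower, and groups without overlap made up 51.9% of all genes tested. A call between the lines was therefore common among all genes, and no result about the members is drawn from their counts. No gene of the 6 was called for the difference in response, for which 0.486% of all genes tested, 86 genes, were called by edgeR's quasi-likelihood test. At an unadjusted p under 0.05 there were 2 of the 6, *Rspo2* and *Lgr4*, and 1207 of all genes, and DESeq2 called 1, *Rspo2*. With library totals alone in place of TMM factors, the upregulated share of the genes called with PTH was 36.9% in place of 55.4% in WT cells and 37.8% in place of 53.2% in Y428F cells, whereas the calls of these 6 genes were the same.

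**Figure D2:**
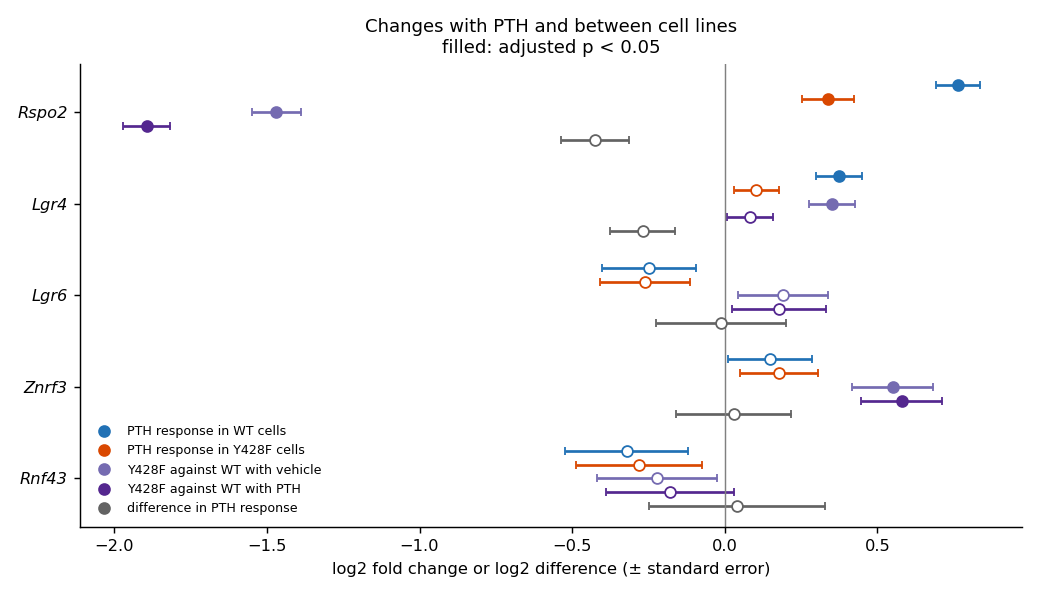
Log2 fold changes with PTH, log2 differences of Y428F from WT cells, and differences between the PTH responses (x axis), with standard errors, for the 5 genes. Filled symbols are called at an adjusted p under 0.05. *Rspo2* lies at 0.76 and 0.34 with PTH and at -1.47 and -1.89 between the lines, and the open grey symbols show that no difference in response was called.

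Levels of different genes were compared per length, as CPM per kb of exon. Averaged over the 12 libraries, *Lgr4* had 3.96, *Rspo2* 3.08, *Znrf3* 1.18, *Lgr6* 1.03 and *Rnf43* 0.507 CPM per kb. Among 17560 genes with a known length these levels lay at percentiles 60.7, 56.2, 43.1, 41.7 and 35.1, but that of *Rspo2* differed between the lines. It lay at percentiles 58.4 and 68.4 in WT cells with vehicle and PTH and at 44.0 and 47.4 in Y428F cells, where *Znrf3* lay at 44.5 and 46.7. *Lgr4* stayed between 56.9 and 63.4 in the 4 groups. In WT cells with vehicle *Lgr6* had 1.05 and *Znrf3* 0.901 CPM per kb, the reverse of their order in the average over all libraries. The ratio of *Rspo2* to *Lgr4* per length was 1.09 ± 0.0157 in WT cells with vehicle and 1.43 ± 0.0696 with PTH, and 0.309 ± 0.0338 in Y428F cells with vehicle and 0.363 ± 0.0118 with PTH (SD, n = 3). The 4 groups did not overlap in this ratio, and how often that holds for other pairs of genes was not computed. *Rspo2* was lower than *Lgr4* in all 6 Y428F libraries. In WT cells with vehicle the order of the pair depended on the length used, because with the length of the longest transcript the ratio was 0.888 ± 0.0128, and it was 1.16 ± 0.0566 with PTH. The groups did not overlap with that length either.

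**Figure D3:**
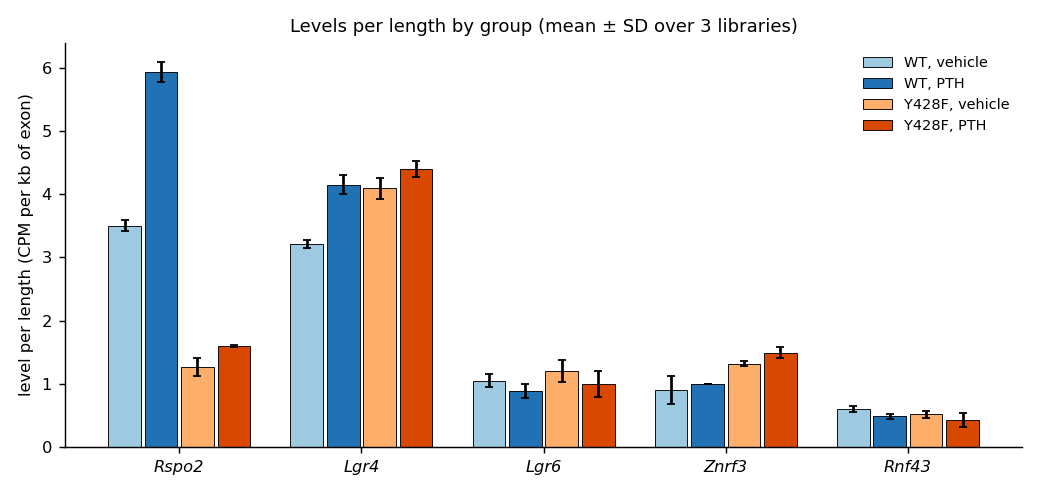
Levels per length (CPM per kb of exon, linear axis from 0) of the 5 genes in the 4 groups. Bars are means and error bars the SD of 3 libraries. The *Rspo2* bars fall below the *Lgr4* bars in Y428F cells and exceed them in WT cells, where with vehicle the order turns (ratio 0.888) when the length of the longest transcript is used.

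Of the summed level of the 3 LGR genes per length, *Lgr4* made up 75.3 ± 2.10% in WT cells with vehicle, 82.4 ± 1.31% with PTH, and 77.3 ± 3.01% and 81.3 ± 3.47% in Y428F cells with vehicle and PTH. The WT groups did not overlap, and the Y428F groups did. Of the summed level of the 2 ligase genes, *Znrf3* made up 59.4 ± 5.18% and 67.5 ± 1.63% in WT cells and 71.9 ± 2.74% and 78.0 ± 3.91% in Y428F cells, with vehicle and PTH. Each of the Y428F libraries held a larger share of *Znrf3* than each of the WT libraries.

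Among the other WNT receptor genes, those called moved in both directions. The list held the 10 Frizzled genes and the coreceptors *Lrp5* and *Lrp6*, of which 9 were tested. In WT cells PTH raised 1, *Fzd7* (32.7 to 43.7 CPM, log2 fold change 0.42, adjusted p = 0.000355), and lowered 1, *Fzd2*, the most abundant (192 to 161 CPM, -0.25, adjusted p = 0.00293). In Y428F cells it raised 1, *Fzd7* (0.26, adjusted p = 0.0268), and lowered 2, *Fzd2* (-0.28, adjusted p = 0.00128) and *Fzd8* (-0.27, adjusted p = 0.0387). The calls of *Fzd7* and *Fzd8* in Y428F cells were lost at an adjusted p limit of 0.01 and without several single libraries. Between the lines with vehicle, 2 were higher and 3 lower in Y428F cells. The lower ones were *Lrp5* (14.2 against 1.68 CPM, log2 difference -3.07, adjusted p = 2.84e-15), *Fzd5* (-1.38, adjusted p = 1.10e-12) and *Fzd8* (53.4 against 21.2 CPM, -1.33, adjusted p = 1.35e-13). The 2 higher ones, *Fzd1* (1.12) and *Fzd4* (0.80), were named after their values were seen, and the study named *Lrp5* and *Fzd1* from these samples. With PTH, 2 were higher and 4 lower in Y428F cells. Of the lower ones, *Fzd7* (-0.25, adjusted p = 0.00919) did not keep its call under every alternative (adjusted p up to 0.0557). The median log2 difference of the 9 genes with vehicle was -0.09, beside 0.01 for all genes tested.

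The genes whose products act beside the complex were *Rspo4*, *Ndp* (norrin, another ligand), *Tnfsf11* (RANKL, the other ligand of LGR4), the scaffolds *Dvl1*, *Dvl2* and *Dvl3*, which recruit the ligases to Frizzled, *Iqgap1*, which binds LGR4, *Usp42*, a deubiquitinase of the ligases, and *Bmpr1a*, a BMP receptor. *Rspo4* and *Tnfsf11* had 0 counts in all 12 libraries, and 6 of the 9 were tested. In WT cells PTH raised 2, *Iqgap1* (log2 fold change 0.28, adjusted p = 0.00258) and *Bmpr1a* (0.21, adjusted p = 0.00724). In Y428F cells it raised 1, *Bmpr1a* (0.22, adjusted p = 0.00712), and lowered 1, *Dvl1* (-0.26, adjusted p = 0.00390). In WT cells *Dvl1* had a log2 fold change of -0.17 that was just short of the threshold (adjusted p = 0.0521, and 0.0306 by DESeq2), as was that of *Iqgap1* in Y428F cells (0.18, adjusted p = 0.0647), which DESeq2 called. Neither gene was shown to respond differently in the lines (differences -0.08, adjusted p = 0.916, and -0.11, adjusted p = 0.891). Between the lines with vehicle, *Bmpr1a* (-0.41, adjusted p = 4.22e-07) and *Dvl2* (-0.31, adjusted p = 0.000269) were among 3 lower in Y428F cells and *Iqgap1* (0.29, adjusted p = 0.000387) was the 1 that was higher. With PTH the counts were again 3 lower and 1 higher, but the call of the latter, *Iqgap1* (0.19, adjusted p = 0.0173), was lost without WT replicate 3 (adjusted p = 0.0992) or Y428F replicate 2 (adjusted p = 0.116) with PTH.

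Most of the genes that report β-catenin signaling in other tissues were at or near 0 here. Of 12, 7 never had more than 10 counts in a library, and *Axin2*, chosen for mention after its values were seen because it is a widely used reporter gene, had 0 or 1. Of the 6 tested, 1 was called with PTH in each line, *Ccnd1* (cyclin D1), which was lower (270 to 233 CPM in WT cells, log2 fold change -0.21, adjusted p = 0.0208, and 515 to 442 CPM in Y428F cells, -0.22, adjusted p = 0.0148). Both calls were lost at an adjusted p limit of 0.01 and without some single libraries. Between the lines with vehicle, 2 were higher in Y428F cells, *Tnfrsf19* (0.511 against 2.14 CPM, log2 difference 2.05, adjusted p = 6.82e-05) and *Ccnd1* (0.93, adjusted p = 7.08e-13), and 3 were lower. The largest of these in level was *Lef1*, a transcription factor of the pathway (23.4 against 2.16 CPM, -3.44, adjusted p = 9.04e-18). The other 2 were less firm, and were named after their values were seen. *Wif1* had at most 5 counts in a library, and *Bambi*, a pseudoreceptor of the TGF-β family (-0.84, adjusted p = 0.0312), lost its call with DESeq2 (adjusted p = 0.0596) and when some single libraries were left out (adjusted p up to 0.117). With PTH the counts were the same, and *Bambi* was lower (-1.14, adjusted p = 0.00745), a call lost without WT replicate 2 with PTH (adjusted p = 0.0566). DESeq2 called 4 of the list in each treatment, in place of 5. In these 3 lists 0 of 21 genes tested were called for the difference in response by edgeR's quasi-likelihood test, 0 by DESeq2, and 3 had an unadjusted p under 0.05.

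**Figure D4:**
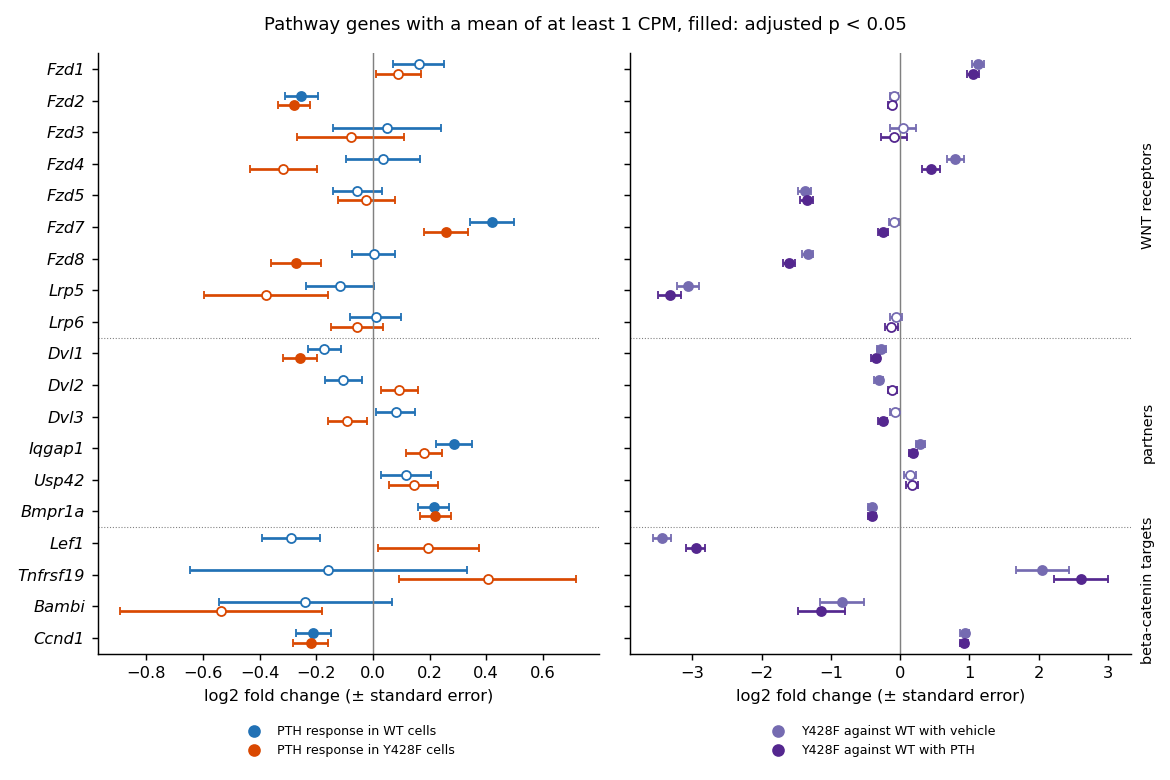
Log2 fold changes with PTH (left) and log2 differences of Y428F from WT cells (right), with standard errors, for those genes of the 3 pathway lists that averaged 1 CPM or more. Filled symbols are called at an adjusted p under 0.05, and the x axes differ in scale. *Lrp5* (-3.07 with vehicle) and *Lef1* (-3.44) stand farthest to the left between the lines, whereas no response to PTH that was called exceeds 0.42 in size.

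Markers of the cells were compared with the labels. Of 12 markers of stromal cells, 9 averaged 1 CPM or more, led by the collagen gene *Col1a2* (9997 CPM), whereas *Thy1* was at 0 in all libraries. Of the 10 tested, 8 were lower and 2 higher in Y428F cells with vehicle. The lower ones included *Vcam1* (log2 difference -1.76, adjusted p = 8.55e-19), *Pdgfra* (-1.59, adjusted p = 1.84e-11) and *Pdgfrb* (-1.51, adjusted p = 2.10e-09). The 2 higher ones, *Ly6a* (138 against 324 CPM) and *Lepr* (0.143 against 1.03 CPM), were named after their values were seen. The summed level of the list with vehicle was 22000 CPM in WT cells and 14549 CPM in Y428F cells. Most of it came from *Col1a1* (7049 and 5455 CPM) and *Col1a2* (12829 and 7745 CPM). With PTH 7 of the markers were lower and 2 higher in Y428F cells. PTH itself lowered 2 in WT cells and 3 in Y428F cells, including *Pdgfra* in both (-0.60, adjusted p = 0.000105, and -0.73, adjusted p = 6.40e-05). The calls of the others rested on single libraries, because when 1 was left out the adjusted p reached 0.237 for *Vcam1* in WT cells and 0.123 and 0.255 for *Col1a1* and *Col1a2* in Y428F cells, and DESeq2 called 3 in WT cells. The osteoblast lineage genes *Runx2* (73.2 to 90.2 CPM in the 4 groups) and *Col1a1* (4339 to 7049 CPM) were counted in this stromal list, and none of the 6 markers of more mature osteoblasts and osteocytes (*Alpl*, *Sp7*, *Bglap*, *Ibsp*, *Dmp1* and *Sost*) exceeded 10 counts in a library. *Rspo2* was thus lower in Y428F cells together with most stromal markers, and the part of these markers in the *Rspo2* result was not tested.

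Haematopoietic, endothelial and epithelial markers were low, with some higher in Y428F cells. Of 6 haematopoietic markers, *Ptprc* (log2 difference 1.70, adjusted p = 1.07e-05) and *Cd14* (0.85, adjusted p = 5.66e-06) were higher in Y428F cells with vehicle and 0 lower, *Kit* was at 0, and the summed level was 7.50, 6.68, 14.1 and 17.1 CPM in WT cells with vehicle and PTH and Y428F cells with vehicle and PTH. In the same order, 5 endothelial markers summed to 1.42, 1.05, 8.91 and 6.46 CPM, led by *Cdh5* (3.28 with vehicle, adjusted p = 1.47e-12), and of the 4 tested 1 was higher in Y428F cells with vehicle and 2 with PTH, of which DESeq2 called 1. The second, *Kdr*, had at most 5 counts in a library and was named after its values were seen. The 5 epithelial markers summed to 0.624, 0.512, 3.67 and 4.41 CPM, led by *Krt8* (2.48 with vehicle, adjusted p = 3.68e-07), with *Epcam* and *Krt5* at 0, and of the 2 tested 2 were higher in Y428F cells with vehicle and 1 with PTH. Of the 6 adipocyte markers, 3 averaged 1 CPM or more and 3 never exceeded 10 counts in a library. Their summed levels were 389, 421, 414 and 469 CPM in the same order, most of it from *Lpl* (361 CPM on average). *Adipoq* and *Cfd* were at 0, and *Pparg* was raised by PTH in both lines (0.51, adjusted p = 1.23e-05, and 0.71, adjusted p = 5.86e-08). In Y428F cells with vehicle 2 of the adipocyte markers were higher and 1, *Fabp4* (-2.03, adjusted p = 7.01e-13), was lower. Of the 2 higher ones, *Lpl* (0.15, adjusted p = 0.0445) lost its call when some single libraries were left out (adjusted p up to 0.247). The part of the markers in the differences of *Rspo2*, *Lgr4* and *Znrf3* was not tested. For the difference in response 0 of the 27 stromal and other markers tested were called by edgeR's quasi-likelihood test, 0 by DESeq2, and 5 had an unadjusted p under 0.05.

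The gene of YAP and that of the PTH receptor gave no check of the labels. *Yap1* had 189 ± 7.20 and 240 ± 8.75 CPM in WT cells with vehicle and PTH, and 147 ± 4.64 and 171 ± 2.66 CPM in Y428F cells (n = 3). It was lower in Y428F cells in both treatments (log2 differences -0.37 and -0.49, adjusted p = 3.03e-06 and 2.05e-08), and counts per gene cannot show the substitution. The YAP added to these cells was thus not seen as a higher *Yap1* count, and the reason was not tested. *Pth1r*, the receptor of PTH, had 0 to 10 counts per library.

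Genes with the pattern most like each of the 5 across the 12 libraries were found from Pearson's r of log2 CPM among the 12037 genes that averaged 1 CPM or more. These correlations are a description, because the 12 points share 4 groups of 3 libraries. For *Rspo2* they were *Srpra* (r = 0.996), *Arl5a* (0.990) and *Eif5a2* (0.988), and 1040 genes exceeded 0.9, a common pattern in these libraries. *Eif5a2*, for example, had 41.5, 50.5, 19.5 and 23.5 CPM in WT cells with vehicle and PTH and in Y428F cells with vehicle and PTH. For *Lgr4* they were *Atoh8* (r = 0.976), *Cited2* (0.970) and *Azin1* (0.968), with 102 genes above 0.9. *Atoh8*, a transcription factor gene, had 5.98, 33.1, 34.3 and 64.7 CPM in the same order, so that it too had similar levels in WT cells with PTH and in Y428F cells with vehicle. For *Znrf3* they were *Pcbp3* (0.967), *Pde4b* (0.961) and *Lmo4* (0.948), with 140 genes above 0.9. The patterns of *Lgr6* (*Gm57315*, 0.916, *Neurl1b*, 0.888, and *Aldh16a1*, 0.875) and *Rnf43* (*Tet2*, 0.895, *Clasrp*, 0.893, and *Gm41760*, 0.876) were shared by 1 and 0 genes above 0.9.

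Reads of overlapping genes could enter these counts, because the sources used here do not say whether the counting used strand. In the annotation, genes on the opposite strand shared 8.07% of the exon bases of *Rnf43*, 5.36% of *Lgr6*, 4.10% of *Lgr4* and 0.250% of *Znrf3*, and none of *Rspo2*.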

How the data were processed

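RNA-Seq comprised 12 libraries of W-20 cells. The authors aligned reads to GRCm39 (STAR 2.7.10b, GENCODE basic annotation) and deposited RSEM expected counts per gene, not scaled for library size or length, and selected RNA on its integrity. Here, these expected counts were rounded, and genes with at least 10 counts over all libraries were fitted in 1 model of the 4 groups in edgeR 4.0.16 (R 4.3.3) with TMM factors and the robust quasi-likelihood test, and p-values were adjusted over 17691 genes by the Benjamini-Hochberg method. Standard errors are the absolute log2 fold change divided by the square root of F. Scripts were tested on simulated data. Replicates differed by more than counting noise (chi-square per degree of freedom 2.94 to 15.2). Symbols, positions and lengths (merged exons) came from GENCODE vM39, which matched 56236 of 56980 identifiers, and promoters from RefSeq. The authors counted with an earlier GENCODE release, so lengths and overlaps may differ from those behind the counts. Columns not used numbered 0.

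Named were all 8 genes, *Yap1* and *Pth1r*, at most 3 called genes per list and comparison, those of largest absolute log2 fold change with 1 CPM or more on average, and the 3 most alike genes per member. The members and lists were chosen with earlier results of these data known, and *Rspo2* was among the genes the study named. The promoter motifs were written from general knowledge. Floors used 3 counts. Alternatives were the Wald test of DESeq2 1.42.0, its size factors or library totals in edgeR, other filters (none, filterByExpr), an adjusted p limit of 0.01, the 6 libraries of a comparison alone, the replicate number as a block, lengths of the longest transcript, and each library left out in turn.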

Additional observations from a re-analysis of the deposited data

How the results depend on the processing

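Of 570 alternative values for single members, 567 kept their side of the threshold, 1 lost its call and 2 gained one, all 3 of them values of *Rspo2* given above. No called value changed sign, but 15 uncalled values did, 1 for *Lgr6* between the lines with PTH and the others for the difference in response (*Lgr5*, *Lgr6*, *Znrf3* and *Rnf43*). At an adjusted p limit of 0.01, the response of WT cells had 1365 called genes, that of Y428F cells 1258 and the difference between them 38, in place of 2386, 2246 and 86. With no filter on low counts the difference had 146 genes. When single libraries were left out, the calls ranged from 1637 to 2664 for the response of WT cells, 1503 to 2625 for that of Y428F cells, 7162 to 8179 and 7385 to 8327 between the lines with vehicle and PTH, and 48 to 109 for the difference, whose count fell below 55 without WT replicate 1 with PTH, Y428F replicates 1 or 2 with vehicle or Y428F replicate 3 with PTH. Of the members, 0 to 1 were then called with PTH in Y428F cells and 0 to 1 for the difference (0 and 1 without Y428F replicate 2 with vehicle, and 1 with DESeq2), and 2, 3 and 2 in the other comparisons. With lengths of the longest transcript *Lgr4* made up 83.0% of the LGR level over all libraries in place of 79.1%, and the ratio of *Rspo2* to *Lgr4* was 0.888, 1.16, 0.252 and 0.296 in WT cells with vehicle and PTH and Y428F cells with vehicle and PTH, in place of 1.09, 1.43, 0.309 and 0.363, so that the order turned in the first of these groups. The replicate numbers did not pair the libraries: same-numbered libraries deviated from their group means with r from -0.11 to 0.185, and 4 of 12 libraries were closest to their own number. With the replicate block, 1373 genes were higher and 1117 lower in the response of WT cells, 1237 and 1115 in that of Y428F cells, 4007 and 4014 between the lines with vehicle, 4013 and 4083 with PTH, and 41 and 54 for the difference, and the members' counts were the same as without it. Depth limits *Rspo1*, *Rspo3* and *Lgr5*, which had too few counts to compare.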

Other observations

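The 2 nearest genes with 1 CPM or more on each side of *Rspo2*, *Lgr4* and *Znrf3*, the members called between the lines, were compared as well. Of these 12 neighbours, 7 were called between the lines with vehicle. The share was 45.2% of all genes tested, but these include many genes below 1 CPM. With filterByExpr, which drops genes of low count, 7851 of 13401 genes were called. No result about the neighbourhoods is drawn from the count. Among genes with at least 4 CPM, chromosome 15, which holds *Rspo2*, had a median log2 difference of 0.20 between Y428F and WT cells with vehicle (434 genes, 72.1% higher in Y428F cells), beside -0.005 for all 10429 genes. *Rspo2* was thus lower on a chromosome whose genes were mostly higher. The nearest neighbour on one side, *Angpt1* (angiopoietin 1, 337 kb away), was lower as well (log2 difference -2.66, adjusted p = 1.55e-14, edgeR's quasi-likelihood test), but the next, *Oxr1*, was higher (1.21, adjusted p = 5.84e-16), and on the other side *Eif3e* (76.2 kb away) differed by 0.18 (adjusted p = 0.0156) and *Emc2* by 0.12 (adjusted p = 0.175). None of these 4 neighbours was called with PTH in WT cells, where *Rspo2* rose.

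Beside *Lgr4*, *Lin7c* (16.5 kb away, log2 difference 0.49, adjusted p = 4.12e-07) and *Ccdc34* (3.53 kb away, 0.92, adjusted p = 4.66e-07) were higher in Y428F cells with vehicle, as was *Lpcat4* (2225 kb away, 0.19, adjusted p = 0.0150), whereas *Bdnf* (190 kb away) differed by 0.04 (adjusted p = 0.752) and the median of chromosome 2 was -0.06 (841 genes). With PTH in WT cells *Bdnf*, a neurotrophin gene, rose (0.66, adjusted p = 6.12e-07), as did *Lin7c* (0.21, adjusted p = 0.0300). Beside *Znrf3*, *Kremen1*, a WNT coreceptor antagonist 14.6 kb away, had a log2 difference of -0.11 (adjusted p = 0.306), *Rhbdd3* one of 0.17 (adjusted p = 0.220), *Ccdc117* one of 0.36 (adjusted p = 0.000548) and *Xbp1* one of 0.08 (adjusted p = 0.298), and the median of chromosome 11 was 0.18 (862 genes, 67.5% higher in Y428F cells). With PTH in WT cells *Ccdc117* (0.26, adjusted p = 0.0315) and *Xbp1* (0.30, adjusted p = 0.000635) rose. The part of the neighbourhood in the differences of the members was not tested. These neighbours were named by position, after the results of the members were known.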
